A study of Mus musculus with 36 samples.

Results

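The nuclear-encoded genes of oxidative phosphorylation (OXPHOS) were followed across a mouse lung RNA-seq series. They were taken by name: symbols starting with Nduf followed by a, b, c, s or v, with Uqcr, with Sdh followed by a, b, c or d, with Cox4i, Cox5, Cox6, Cox7 or Cox8, or with Atp5, leaving out Ndufaf names and pseudogene names. This gave 90 of the 46078 genes in the count table. Sorted to complexes by symbol alone, they comprised 38 genes of complex I, 8 of complex II, 9 of complex III, 18 of complex IV and 17 of complex V. Ndufa4 and Ndufa4l2 are thus counted under complex I for their names. The name rule also kept Sdhaf1 to Sdhaf4, which assemble complex II, and Atp5s and Atp5sl, which are named like ATP synthase genes. These are counted under complex II and complex V. Of the 90 genes, 87 had enough counts to be tested. Cox8c and Cox7b2, which are known as testis forms, had 2 and 24 counts over all libraries, and a second Uqcrc1 entry on a patch scaffold had 0.

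The respiratory chain passes electrons from NADH (through complex I) or succinate (through complex II) to complex III and on to oxygen at complex IV, and complex V makes ATP from the proton gradient this builds. Most subunits are encoded in the nucleus and imported, while a few core subunits of complexes I, III, IV and V are encoded in mitochondrial DNA. In complexes I and IV, catalytic core subunits are surrounded by many small accessory subunits, some of which exist as muscle-type, lung-type or oxygen-sensitive isoforms.

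The libraries came from lungs of female wild type C57BL/6 mice that had received a single intranasal dose of 50 μg of graphene oxide or the 5% dextrose vehicle (D). The labels give the graphene oxide as US, S and L, which are known from the study as ultrasmall, small and large sheets. Lungs were taken at day 1, 7 or 28, at 9, 10 and 13 weeks of age, which makes 12 groups of 3 libraries (36 in all). Day after dosing and age therefore cannot be told apart. The labels give 4 to 5 animals in a group without naming the animal behind a library. The p-values therefore reflect the spread among libraries, which may in part be technical. In the fits of all groups together, this spread was pooled over the 12 groups.

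Total counts were 16154696 to 23808264 in all libraries except S day 7 replicate 2, which had 80566751. Markers of alveolar type 2 cells, the surfactant-making cells of the lung, summed to 24500 to 41100 CPM (counts scaled to library size by edgeR's TMM factors) over all libraries. Of these 7 markers, Sftpb had 0 counts in every group, so the sums here and below rest on the other 6. In these bulk samples, fewer cells of a type and less RNA per cell cannot be told apart. The 90 genes together took 0.525% to 0.924% of each library's counts. Levels are given as CPM within a gene and, between genes, as the deposited TPM, which is also scaled to transcript length.

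Per transcript, these were abundant genes. Mean TPM over the 36 libraries had a median of 116.8 over the tested genes and ran from 3.34 for Sdhaf3 to 534.8 for Atp5b, the catalytic beta subunit of ATP synthase. After Atp5b came Ndufa4 at 436.9 TPM, Atp5h, a stalk subunit of complex V, at 425.9 TPM, and Cox4i1, the common form of a complex IV regulatory subunit, at 423.6 TPM. These names and the most and least variable genes below were picked after their values were seen.

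How far the genes varied between groups differed widely. The ratio of the highest to the lowest group mean CPM had a median of 1.68 over the tested genes. It was 1.09 for Sdhaf2, 1.13 for Uqcrc2, a core protein of complex III, and 1.16 for Sdha, the flavoprotein of complex II. At the other end it was 3.57 for Uqcr11 and 4.06 for Uqcrq, both small subunits of complex III. The group with the highest mean was D day 7 for 46 genes and L day 7 for 34. The group with the lowest mean was S day 1 for 70.

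The level of the whole group of genes, the mean log2 CPM of its tested members relative to all libraries, showed the same order. It was highest in D day 7, at 0.556, 0.417 and 0.083 in replicates 1 to 3, and in L day 7, at 0.652, 0.282 and -0.089. It was lowest in S day 1, at -0.305, -0.361 and -0.370. The 3 replicates of D day 28 lay close together, between -0.144 and -0.110, whereas those of D day 7 and L day 7 were widely spread. The cytosolic ribosomal protein genes, another list of nuclear genes, moved with them. Their level was 0.596, 0.496 and 0.062 in D day 7 and -0.277, -0.507 and -0.595 in S day 1. The subunits encoded in mitochondrial DNA did not follow this order, with -0.127, 0.451 and -0.268 in D day 7. The part of a shared library property in these levels was not tested.

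**Figure D1:**
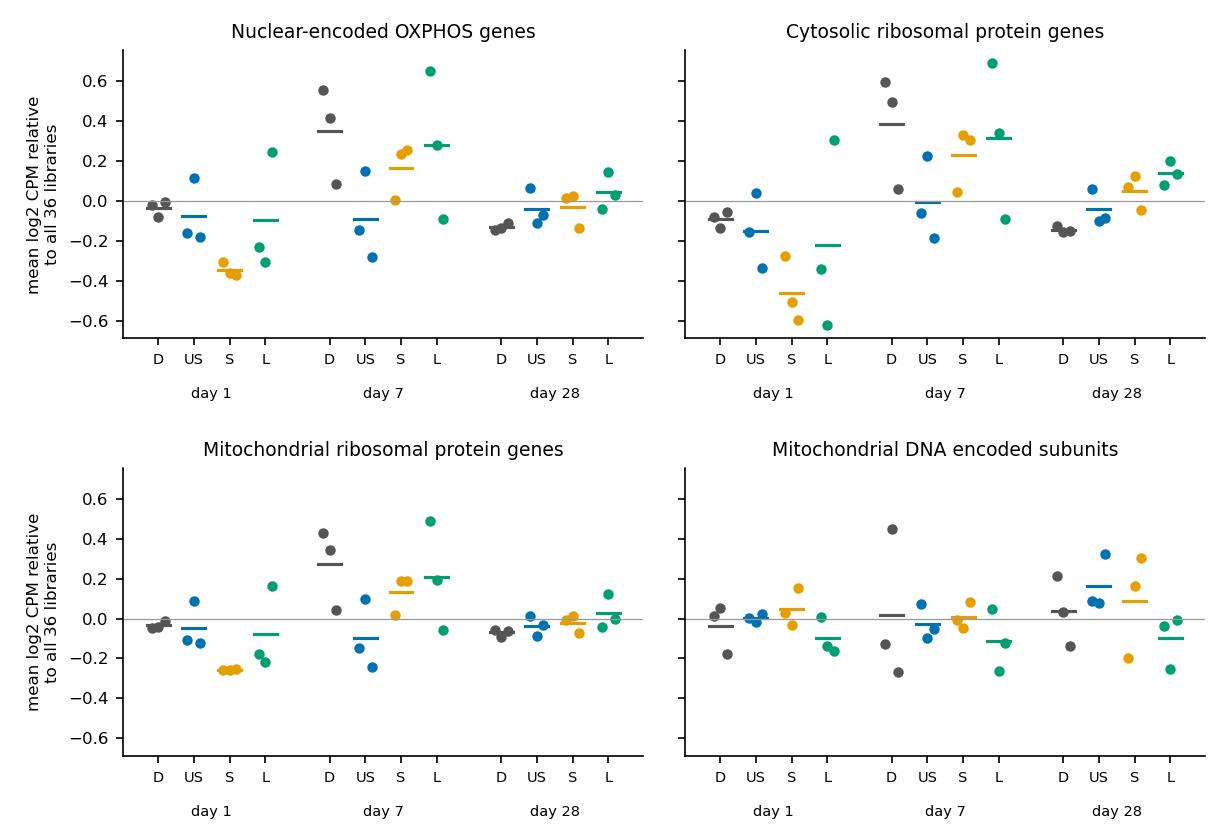
Level of 4 gene lists in each of the 36 libraries, as the mean log2 CPM of the list relative to all libraries (vertical axis), by material and day (horizontal axis). Points are libraries and bars are group means. The nuclear OXPHOS genes are highest in D day 7 and L day 7 and lowest in S day 1, both ribosomal lists have the same order, and the subunits from mitochondrial DNA do not.

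In the dextrose controls, the OXPHOS genes were lower at day 28 than at day 7. Of the 87 tested, 53 fell and 0 rose by edgeR's quasi-likelihood test with Benjamini-Hochberg adjustment over all genes at 0.05. Over all 16903 genes tested, 15.6% were called in this comparison and 6.73% were called lower. At an unadjusted p under 0.05 there were 73 OXPHOS genes, beside 34.9% of all genes. The median log2 fold change of the OXPHOS genes was -0.49, beside -0.01 over all genes. In 70 of the 87, every day 28 library was below every day 7 library, which held for 17.8% of all genes, and in 1 gene every day 28 library was above (19.9% of all genes).

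Genes of each of the 5 complexes were called. In complex I, 23 of 38 fell, 6 of the 7 nuclear core genes and 17 of the 31 accessory genes. Ndufs7, a core subunit that carries an iron-sulfur cluster, had 65.5, 45.2 and 33.8 CPM at day 7 and 18.3, 24.96 and 29.3 CPM at day 28. The groups did not overlap (log2 fold change -0.99 ± 0.29 SE, adjusted p = 0.02879). Among the other core genes that fell, Ndufs8, another iron-sulfur subunit, fell by 0.54 on the log2 scale and Ndufv1, which binds NADH and flavin, by 0.34. Among accessory genes, Ndufa7 went from 62.9 ± 14.7 to 37.0 ± 1.80 CPM (SD, n = 3) and Ndufb11 from 111.6 ± 24.6 to 68.7 ± 4.33 CPM. Ndufs6, which carries a zinc ion, had a log2 fold change of -0.66 and Ndufb6, in the membrane arm, -0.74.

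In complex II, 4 of 8 fell. Sdhb, the iron-sulfur subunit, had a log2 fold change of -0.37 and the membrane anchor Sdhd -0.39, while Sdhaf1, an assembly factor for the iron-sulfur clusters, had -0.63. Complex III had 5 of 8 lower. Its small subunit Uqcrq had 57.0, 37.2 and 24.6 CPM at day 7 against 11.4, 17.3 and 26.0 CPM at day 28. The highest day 28 library exceeded the lowest day 7 library, and the log2 fold change was -1.11 ± 0.38 (SE, adjusted p = 0.04569). The small subunits Uqcr11 and Uqcr10 had -0.99 and -0.78, more than the core protein Uqcrc1 (-0.41) and the Rieske iron-sulfur protein Uqcrfs1 (-0.37).

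Complex IV had 13 of 16 genes lower. Cox4i1 had the smallest p of all OXPHOS genes, with 309.3, 257.3 and 210.9 CPM at day 7 and 159.4, 157.5 and 166.3 CPM at day 28. All 3 day 28 libraries lay under the lowest day 7 library, a 1.61-fold lower level (log2 fold change -0.69 ± 0.18 SE, adjusted p = 0.02597). Cox8b, a muscle-type subunit with few counts, had the largest log2 fold change, -1.15 ± 0.39 (SE, adjusted p = 0.04614). Its levels were 2.61, 2.34 and 1.60 CPM at day 7 and 1.15, 0.8547 and 0.9401 CPM at day 28. The structural subunits Cox5a, Cox5b and Cox6c had log2 fold changes of -0.64, -0.68 and -0.55.

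In complex V, 8 of 17 fell. The epsilon subunit of the central stalk, Atp5e, went from 133.9, 111.8 and 76.4 CPM to 52.6, 58.0 and 58.2 CPM without overlap (log2 fold change -0.93 ± 0.28 SE, adjusted p = 0.03141). The delta subunit Atp5d, beside it in the stalk, had -0.87. Atp5g3, which encodes the proton-carrying c subunit, had -0.66, and Atp5o, of the peripheral stalk, -0.42.

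Several large catalytic subunits did not pass the test and showed log2 fold changes near 0. Sdha had 236.9, 236.4 and 236.9 CPM at day 7 and 236.3, 233.9 and 247.6 CPM at day 28 (0.02 ± 0.07 SE, adjusted p = 0.8881). Atp5b had 542.3, 550.2 and 562.5 CPM against 572.5, 535.4 and 541.7 CPM (-0.00 ± 0.07 SE, adjusted p = 0.9718). Ndufs1, the largest core subunit of complex I, had 79.0, 84.7 and 83.4 CPM against 87.0, 88.2 and 85.9 CPM. It was the 1 OXPHOS gene whose day 28 libraries were all above its day 7 libraries, and it did not pass the test (0.08 ± 0.06 SE, adjusted p = 0.3606). Uqcrc2 stood at 0.09 ± 0.07 (SE, adjusted p = 0.3696). Within the catalytic head and central stalk of complex V, log2 fold changes therefore ran from -0.00 for Atp5b to -0.93 for Atp5e. Apart from the isoform pairs and the ends of each complex, the genes named for this comparison were chosen after their values were seen, for their roles.

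The count of 53 moved with single libraries. It was 70 without D day 7 replicate 3, where 26.0% of all genes were called. It was 0 without D day 7 replicate 1 or 2 or without any 1 of the 3 D day 28 libraries. Calls over all 16903 genes dropped there too, from 2643 to 8 and 35 without D day 7 replicates 1 and 2. Without D day 28 replicates 1 to 3 they were 434, 11 and 30. Trends on GC content and transcript length were also removed from each library, an alternative chosen after seeing the data. The OXPHOS count was then 0 and the median was -0.20.

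Fold changes differed with transcript length. The OXPHOS transcripts were short, with a median of 865 bases for the principal transcript beside 2785 bases over all tested genes. Among the 22 OXPHOS genes of up to 620.5 bases, the median log2 fold change of D day 28 against D day 7 was -0.60. It was -0.59 in the next 22, -0.49 in the next 21 and -0.28 in the 22 above 1551.5 bases, where 6 genes were called. Genes outside OXPHOS had medians of -0.35, -0.41, -0.33 and 0.07 in the same 4 length ranges, so other short transcripts were lower too, by less. In US against D at day 7, the OXPHOS medians in these ranges were -0.57, -0.54, -0.50 and -0.17, and those of other genes were -0.18, -0.26, -0.23 and 0.06. The part of length in either result was not tested beyond the alternative above.

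**Figure D2:**
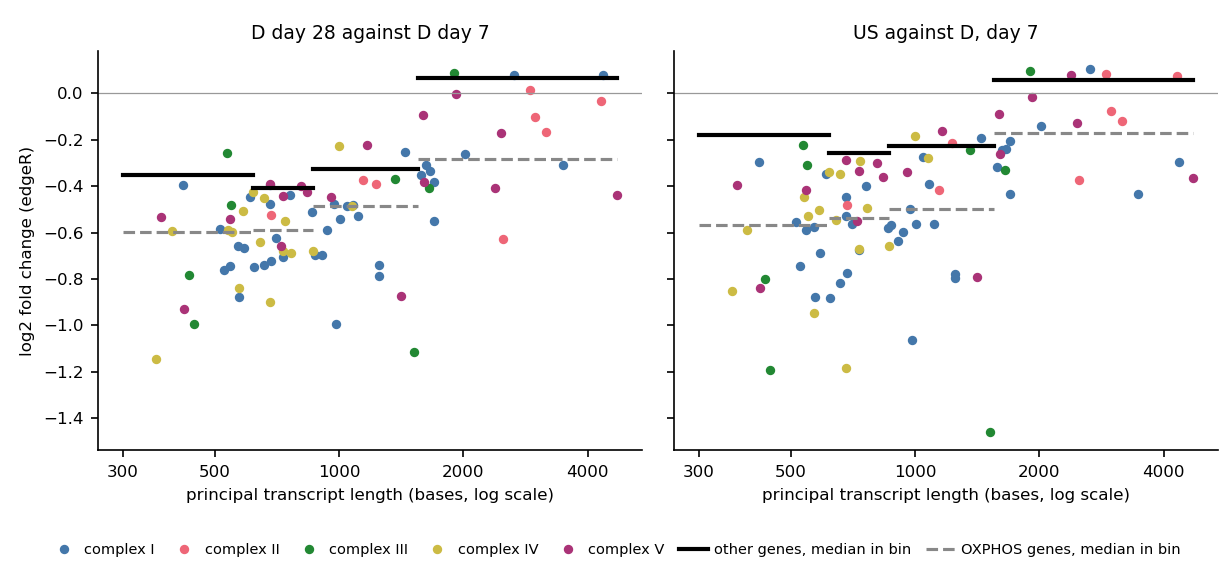
Log2 fold change of each tested OXPHOS gene (vertical axis) against the length of its principal transcript in bases (horizontal log axis), for D day 28 against D day 7 (left) and US against D at day 7 (right). Points are genes coloured by complex, dashed bars the OXPHOS median and solid bars the median of other genes in 4 length ranges, drawn only over the plotted lengths. In both panels short OXPHOS genes lie lower than long ones, and OXPHOS medians lie under those of other genes.

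Of the 9 comparisons with the vehicle on the same day, US at day 7 was the one with calls. There, 4 of 87 OXPHOS genes were lower in US than in D and 0 were higher, beside 2.09% of all genes called and 1.18% called lower. The median log2 fold change was -0.42 (0.01 over all genes), 82 of 87 genes had a negative value (48.5% of all genes) and 58 had an unadjusted p under 0.05, which 25.7% of all genes had. By complex, the medians were -0.56 for I, -0.17 for II, -0.32 for III, -0.51 for IV and -0.34 for V. In 23 genes every US library was below every D library (11.1% of all genes), and in 3 genes, Ndufs1, Uqcrc2 and Sdha, every US library was above (7.9% of all genes).

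Uqcrq (chromosome 11, 53427922 to 53430831, minus strand, GRCm38 as in the files) encodes a small subunit of complex III. It had 12.3, 17.5 and 13.5 CPM in US against 57.0, 37.2 and 24.6 CPM in D, without overlap. This was 2.75-fold lower (log2 fold change -1.46 ± 0.39 SE, adjusted p = 0.04202). Ndufs7 (chromosome 10, 80249121 to 80256794, plus strand) had 19.8, 27.8 and 21.5 CPM in US against 65.5, 45.2 and 33.8 CPM in D, also without overlap. It was 2.09-fold lower (-1.06 ± 0.29 SE, adjusted p = 0.04638).

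Cox6a2 (chromosome 7, 128205436 to 128206366, minus strand) encodes the heart and skeletal muscle form of a complex IV subunit. It had 3.10, 4.88 and 4.35 CPM in US against 11.4, 8.272 and 8.197 CPM in D, every US library below every D library. It was 2.27-fold lower (log2 fold change -1.18 ± 0.30 SE, adjusted p = 0.04076). Its span overlaps Itgad on the opposite strand, and the strand setting of the counting is not known here. Ndufb6 (chromosome 4, 40270591 to 40279421, minus strand), an accessory subunit in the membrane arm of complex I, overlaps Smim27 on the opposite strand. It had 17.6, 22.3 and 14.4 CPM in US against 37.1, 36.6 and 21.9 CPM in D. The highest US library exceeded the lowest D library, and the gene was 1.76-fold lower (-0.82 ± 0.20 SE, adjusted p = 0.03697).

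**Figure D3:**
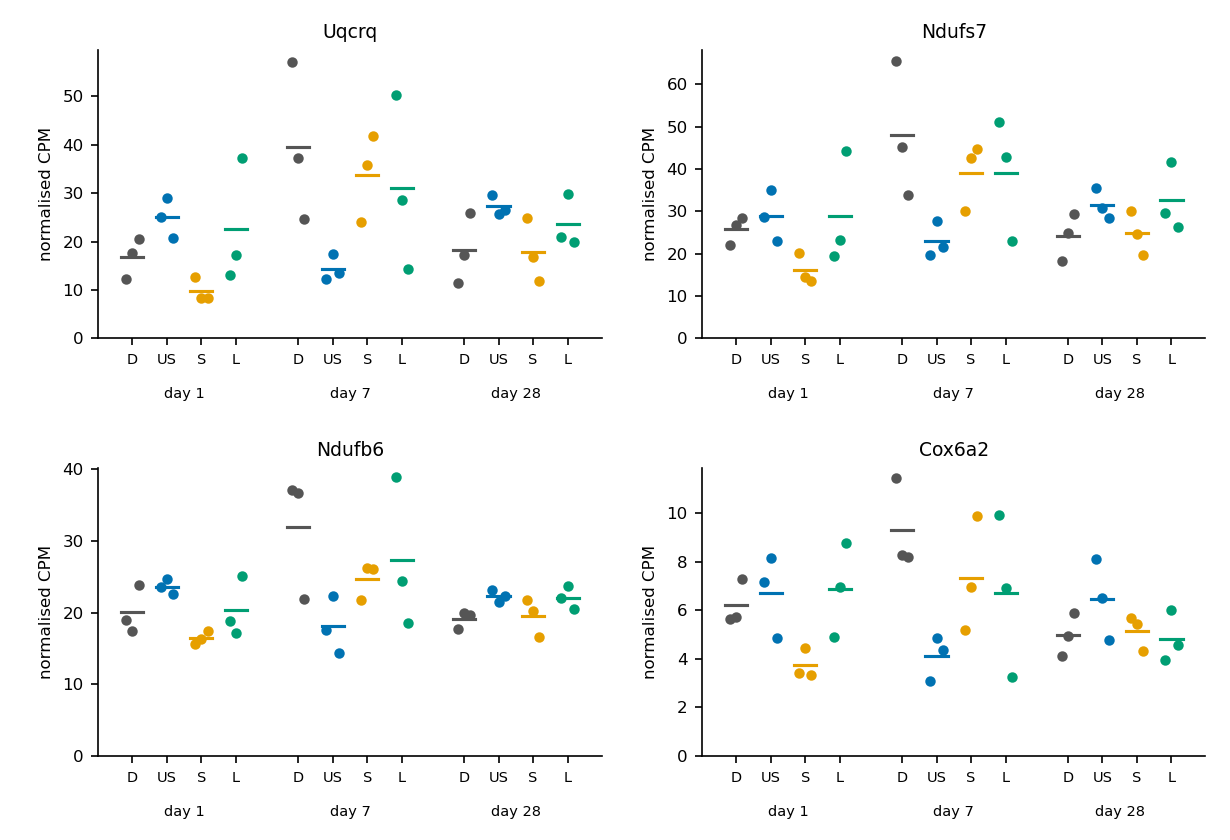
Normalised CPM (vertical axes, from 0) of the 4 OXPHOS genes called in US against D at day 7, in each of the 36 libraries by material and day. Points are libraries and bars are group means. For Uqcrq, Ndufs7 and Cox6a2 every US day 7 library lies under every D day 7 library, and all 4 genes also have low values in S day 1.

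Within each complex, the genes at the 2 ends of the US against D comparison were as follows. Ndufs1 stood at 0.10 and Ndufs7 at -1.06 in complex I. Sdha stood at 0.08 and Sdhaf4 at -0.48 in complex II, and Uqcrc2 at 0.10 and Uqcrq at -1.46 in complex III. Cox7b stood at -0.18 and Cox6a2 at -1.18 in complex IV, and Atp5sl at 0.08 and Atp5e at -0.84 in complex V. Atp5sl, counted there by name only, was the only 1 of the 17 above 0. Of the genes at these ends, only Ndufs7, Uqcrq and Cox6a2 passed the test. The 31 accessory genes of complex I had a median of -0.56, its 7 nuclear core genes -0.27.

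The US count at day 7 moved with single libraries. It was 50 without D day 7 replicate 3 and 54 without US day 7 replicate 2. Over all genes, 13.5% and 18.2% were called without these 2 libraries. The US count was 0 without D day 7 replicate 1 or 2 or without US day 7 replicate 1 or 3. Over all 16903 genes, these fits called 18, 39, 45 and 18 in that order, beside 353 with every library. DESeq2 called 29 OXPHOS genes (7.55% of all genes), and a fit of the 2 groups alone called 0. No filter on low counts gave 14 (1.41%), limma on log2(TPM + 1) gave 1 (0.826%), and removing GC and length trends gave 9 (2.44%).

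In S against D at day 1, 0 OXPHOS genes were called by edgeR, beside 0.0473% of all genes, and 0 by DESeq2. The median log2 fold change was -0.27, and in 60 of 87 genes every S library was below every D library, against 15.2% of all genes. At an unadjusted p under 0.05 there were 26 genes, beside 21% of all genes. In a fit of the S and D libraries of day 1 alone, 21 OXPHOS genes were called, beside 6.69% of all genes. Uqcr11, chosen after its values were seen, had 23.5, 15.3 and 11.2 CPM in S against 24.2, 29.3 and 35.5 CPM in D, without overlap (log2 fold change -0.83, edgeR adjusted p = 0.1877).

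In L against D at day 28, 0 OXPHOS genes were called by edgeR, beside 2.15% of all genes, and 0 by DESeq2, and the median was 0.18. In 40 of 87 genes every L library was above every D library, which held for 14.6% of all genes. In 1 gene, Ndufb2, an accessory subunit of complex I, every L library was below every D library (16.4% of all genes), with a log2 fold change of -0.43. At an unadjusted p under 0.05 there were 6 genes, beside 16.7% of all genes. Cox4i1 had 204.8, 228.6 and 213.9 CPM in L against 159.4, 157.5 and 166.3 CPM in D, without overlap (log2 fold change 0.42 ± 0.18 SE, edgeR adjusted p = 0.2334). A fit of these 2 groups alone called 3 OXPHOS genes, beside 4.51% of all genes.

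The other 6 comparisons with D called 0 OXPHOS genes by edgeR. At day 1, the median was -0.03 for US, beside 0.0887% of all genes called, and -0.05 for L, beside 0.0237%. At day 7 it was -0.20 for S (0.45% of all genes) and -0.02 for L (0.154%). At day 28 it was 0.08 for US (0.0237%) and 0.11 for S (0.237%). At an unadjusted p under 0.05 there were 1 OXPHOS gene for US (16.1% of all genes) and 0 for L (4.94%) at day 1, 1 for S (9.33%) and 1 for L (4.87%) at day 7, and 0 for US (6.02%) and 1 for S (9.87%) at day 28. DESeq2 called 1 OXPHOS gene for US at day 1 (2.17% of all genes) and 0 in the other 5.

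**Figure D4:**
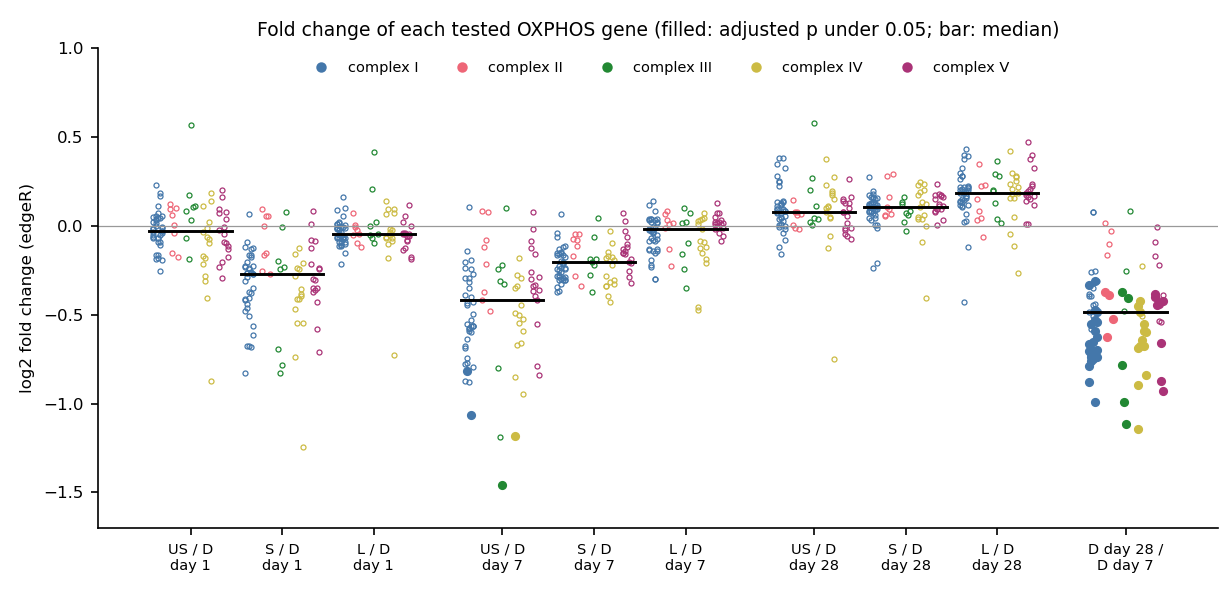
Log2 fold change (vertical axis) of each of the 87 tested OXPHOS genes in the 9 comparisons with D and in D day 28 against D day 7 (horizontal axis), coloured by complex. Filled points have an adjusted p under 0.05 and bars are medians. Most genes lie below 0 in US at day 7 and in D day 28 against D day 7, and calls occur in these 2 comparisons only.

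The D day 7 libraries served the comparisons of US, S and L at day 7 and both comparisons of D day 7 with another day, so values are given side by side. D day 7 against D day 1 had a median of 0.41, with 0 genes called by edgeR, beside 0% of all genes, and 0 by DESeq2. At an unadjusted p under 0.05 there were 64 of 87 genes, beside 24.2% of all genes. In 50 of 87 genes the D day 7 libraries all lay above the D day 1 libraries, against 13.2% of all genes. Without D day 7 replicate 3, 31 OXPHOS genes were called, beside 10.0% of all genes. D day 28 against D day 1 had a median of -0.09 and 0 genes called by either tool, beside 0.0769% of all genes, with 1 gene at an unadjusted p under 0.05 (5.4% of all genes).

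Between the sheet sizes, L against US at day 7 had a median of 0.41. edgeR called 0 OXPHOS genes, beside 0.00592% of all genes, and DESeq2 0, while 61 of 87 genes had an unadjusted p under 0.05 (15% of all genes). Without L day 7 replicate 3, the L day 7 library with the lowest OXPHOS level, 45 were called, beside 5.29% of all genes. S against US at day 7 had a median of 0.21 with 19 genes at an unadjusted p under 0.05 (13.2% of all genes), and L against S 0.15 with 3 genes (6.69%). At day 1, S against US had a median of -0.21 with 25 genes at an unadjusted p under 0.05 (13.7%), L against S 0.24 with 19 genes (10.4%) and L against US -0.01 with 2 genes (6.27%).

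At day 28, S against US had a median of 0.05 with 0 genes at an unadjusted p under 0.05 (5.44% of all genes), L against US 0.09 with 3 genes (11.3%) and L against S 0.07 with 0 genes (3.76%). In these 8 comparisons edgeR and DESeq2 called 0 OXPHOS genes. Over all genes, edgeR called 0.142% for S against US and 0.154% for L against S at day 7, 0.0177% for S against US at day 1, 0.515% for L against US and 0.0651% for L against S at day 28, and 0% in the other 3.

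Whether an effect of the sheets differed between day 1 and day 28 was tested as the difference of the differences from D. edgeR called 0 OXPHOS genes for US, S and L, beside 0.0473%, 0.195% and 0.243% of all genes, and DESeq2 also called 0. For US the median was 0.11, with 1 gene at an unadjusted p under 0.05 (10.8% of all genes). For S it was 0.39, with 22 genes (21.1%), and for L 0.22, with 3 genes (12.5%). Without L day 1 replicate 3, 2 of the 87 genes were called for L, beside 1.89% of all genes. The joint test of material by day called 0 by edgeR, beside 0.361% of all genes, and 3 by DESeq2 (4.21% of all genes), with 19 genes at an unadjusted p under 0.05 (15.5% of all genes).

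The named isoforms form 6 pairs of an alternative and a common form, and the alternative was the less abundant of each pair in every library. By TPM, Cox4i2, the lung form that responds to oxygen, made up a median of 21.0% of Cox4i1 plus Cox4i2 (range 16.5% to 30.4%). The share of Ndufa4l2, a hypoxia-induced relative of Ndufa4, was 8.81% (6.02% to 11.4%), and its span overlaps Shmt2 on the opposite strand. Cox6b2, a testis-type form, made up 8.203% of its pair with Cox6b1 and Cox6a2 7.02% of its pair with Cox6a1. The muscle-type forms Cox8b and Cox7a1 made up 3.49% (1.82% to 5.58%) and 3.21% (1.38% to 5.72%) beside Cox8a and Cox7a2. The third Cox7a form, Cox7a2l, had a mean of 343.8 TPM.

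The mean share of Cox4i2 was lowest in S day 1, at 17.5% ± 1.10 (SD, n = 3), and highest in L day 1, at 25.7% ± 4.66. In US against D at day 7, Cox6a2 was called at -1.18, while its partner Cox6a1 had -0.95 ± 0.26 (SE, edgeR adjusted p = 0.05052). Cox6a1 had 48.2, 69.8 and 43.4 CPM in US against 140.9, 99.9 and 70.5 CPM in D. The share of Cox6a2 was 6.39% ± 1.35 in US and 7.54% ± 1.49 in D (SD, n = 3), a difference within the spread. In D day 28 against D day 7, Cox4i1 and Cox4i2 fell by similar amounts, -0.69 and -0.68, and Cox8a and Cox8b by -0.60 and -1.15. The share of Cox8b was 4.43% ± 0.253 at day 7 and 3.08% ± 0.790 at day 28 (SD, n = 3). Cox7a2 fell (-0.45), whereas Cox7a1 had -0.59 ± 0.45 (SE, edgeR adjusted p = 0.3518).

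**Figure D5:**
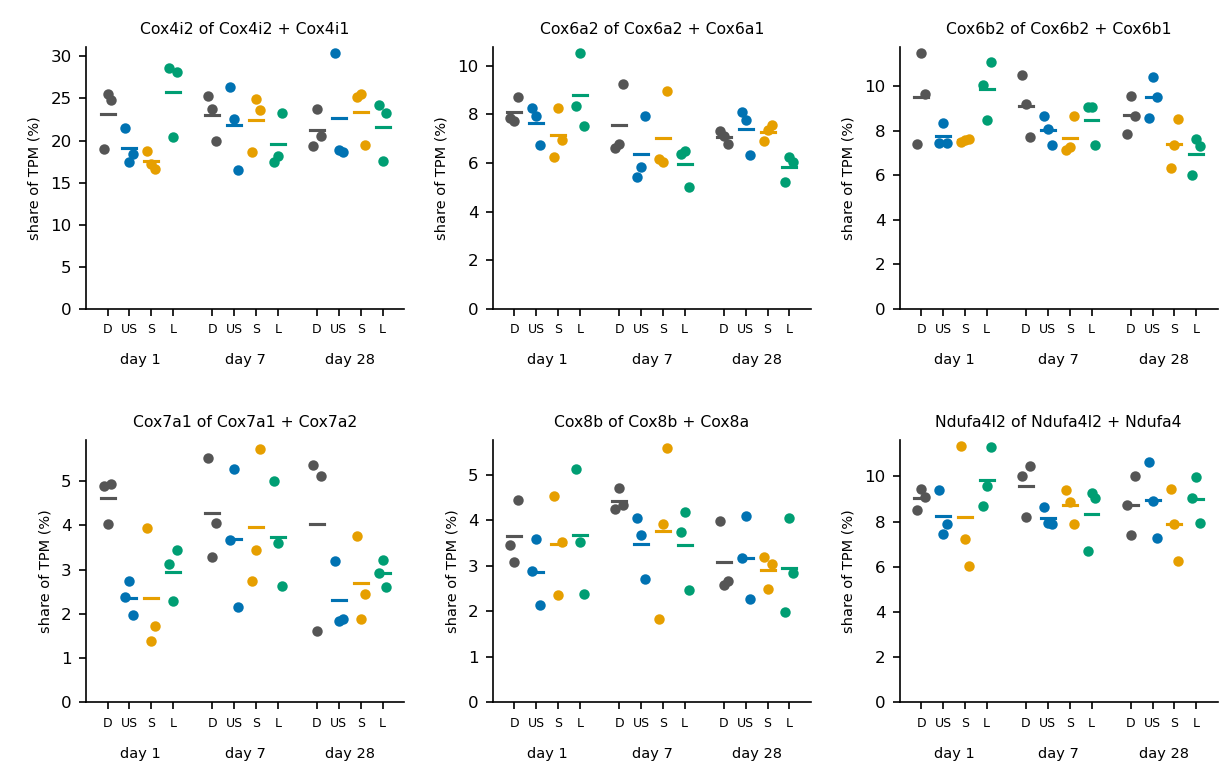
Share of the alternative form in the summed TPM of each pair (vertical axes in percent, from 0), in each of the 36 libraries by material and day. Points are libraries and bars are group means. Every library keeps the common form ahead, with Cox4i2 between 16.5% and 30.4% of its pair and Cox7a1 between 1.38% and 5.72%.

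The muscle-type forms are heart genes too, and mouse lung holds heart muscle cells around its pulmonary veins. The 11 cardiomyocyte markers, all detected, summed to 161 to 211 CPM in D day 7, to at most 154 CPM in US day 7 and to 63.5 to 137 CPM in D day 28. Each D day 7 library thus exceeded each US day 7 and D day 28 library. In D day 28 against D day 7, 2 of the 10 tested markers were called lower, Tnni3 and Myl4. The 8 fat markers summed to 31.9 to 55.8 CPM in D day 7, 17.8 to 26.9 CPM in US day 7 and 18.0 to 24.3 CPM in D day 28. All 7 tested fat markers had negative log2 fold changes in US against D at day 7 (median -1.51), with 1 called. The same held in D day 28 against D day 7 (median -2.09), also with 1 called. In D day 7, US day 7 and D day 28, the 5 brown fat markers summed to at most 3.83 CPM and the 8 skeletal muscle markers to at most 7.25 CPM.

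Markers of lung cells also differed between these groups. Alveolar type 2 markers summed to 33200 to 36900 CPM in D day 7 and to 28400 to 29700 CPM in D day 28, without overlap, and overlapped with D day 7 in US day 7 (29600 to 34600 CPM). Alveolar type 1 markers summed to 3490 to 5230 CPM in D day 7 and to 3140 to 3320 CPM in D day 28, and T and NK cell markers to 63.0 to 77.8 and 49.3 to 62.3 CPM, also without overlap. In these 3 lists edgeR called 0 markers in D day 28 against D day 7, with 1, 3 and 0 at an unadjusted p under 0.05. Single markers did not all follow the sums. Log2 fold changes were above 0 for 3 of 6 tested alveolar type 2 markers (median 0.06). The same held for 1 of 4 alveolar type 1 markers and 0 of 5 T and NK cell markers. Endothelial markers summed to 2060 to 2120 CPM in US day 7, below the 2230 to 2670 CPM of D day 7. Of the 4, Egfl7 and Cldn5 were called lower, and the other 2 had log2 fold changes above 0, up to 0.19. In the same comparison 1 of 4 club cell markers (Bpifa1) and 1 of 7 smooth muscle and pericyte markers were called lower and 2 of 9 ciliated cell markers (Dnah9 and Hydin) higher. In D day 28 against D day 7, Egfl7, Bpifa1 and 1 of 7 alveolar macrophage markers were called lower, and Dnah9, Hydin and 1 of 5 macrophage markers higher. In that comparison, 2 of 4 endothelial, 1 of 4 club and 1 of 7 alveolar macrophage markers had log2 fold changes above 0. So did 4 of 9 ciliated and 2 of 5 macrophage markers, and the medians of these 2 lists were both -0.05. The part of these cell types, of heart muscle or of fat in the OXPHOS results was not tested.

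Other lists of the pathway were counted in the same 2 comparisons. In D day 28 against D day 7, mitochondrial ribosomal protein genes fell in 25 of 76 (median -0.35) and cytosolic ones in 42 of 83 (median -0.52). Mrpl11, of the large mitochondrial subunit, had a log2 fold change of -0.66 and Rps16, of the small cytosolic subunit, -0.80. The assembly factors fell in 6 of 41 (median -0.19), among them Cox14, which assembles complex IV, at -0.78. In US against D at day 7, 6 of 76 mitochondrial and 1 of 83 cytosolic ribosomal genes were lower (medians -0.35 and -0.34), as were Cox14 (-0.93) and Cox19 (-0.51, named after its value was seen) among 41 assembly factors (median -0.12). Electron carriers and small partners fell in 3 of 16 in D day 28 against D day 7, led by Etfb, the beta subunit of the electron transfer flavoprotein, at -0.69.

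Lists of genes upstream of the chain had medians near 0. The 17 citric acid cycle genes had a median of 0.02 in D day 28 against D day 7, with Idh3a called higher (0.28) and Suclg1 and Idh3g lower (-0.31 and -0.22). In US against D at day 7, their median was 0.00, with 0 called by edgeR and 3 at an unadjusted p under 0.05. The 16 glycolysis genes had medians of -0.02 in both comparisons. Of 11 tested subunits from mitochondrial DNA, mt-Nd5 was called higher (0.86) and mt-Nd6 lower (-1.89) in D day 28 against D day 7, with a median of 0.12. Among 16 regulators of mitochondrial biogenesis, Esrrg, an orphan nuclear receptor of oxidative genes, was the only call in each comparison, 1.02 higher in US against D at day 7 and 0.99 higher in D day 28 against D day 7.

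Nuclear OXPHOS promoters are known for sites of NRF1 and of ETS factors such as GABPA. Of the 90 genes, 71 had an entry in the RefSeq promoter table (GRCm38.p6), which spans 250 bases before to 50 after each start. The NRF1 core GCGCATG, read on both strands, was in 18.3% of these 71 and in 3.91% of all 32851 promoters of that table. The ETS motif CCGGAAG was in 25.4% and 8.86%, the ERRA motif AAGGTCA in 11.3% and 4.72%, and the YY1 motif AAGATGG in 12.7% and 6.34%. Each motif was counted whether or not it overlapped another, and 52.1% of the OXPHOS promoters held at least 1 of the 4, beside 21.6% of all promoters. Among the genes called lower in D day 28 against D day 7, 24 of 43 with an entry held a motif, and among those not called, 13 of 27.

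The 250 bases upstream of 3 genes are shown because their genes moved and they lie clear of the gene spans in the files. They belong to Ndufb6, lower in both comparisons (chr4:40279422-40279671, minus strand), Ndufa11, an accessory subunit of complex I that fell by 0.75 on the log2 scale in D day 28 against D day 7 (chr17:56717512-56717761, plus strand), and Cox8b (chr7:140900447-140900696, minus strand). All are written 5′ to 3′ in GRCm38.p6, ending at the base before the start (position -1), with NRF1 and ETS matches in capitals.
Ndufb6: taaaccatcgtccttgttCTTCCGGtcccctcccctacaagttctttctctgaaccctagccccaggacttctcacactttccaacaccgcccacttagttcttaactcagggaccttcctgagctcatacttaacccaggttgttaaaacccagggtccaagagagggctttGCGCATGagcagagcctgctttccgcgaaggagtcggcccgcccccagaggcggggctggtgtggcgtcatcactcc
Ndufa11: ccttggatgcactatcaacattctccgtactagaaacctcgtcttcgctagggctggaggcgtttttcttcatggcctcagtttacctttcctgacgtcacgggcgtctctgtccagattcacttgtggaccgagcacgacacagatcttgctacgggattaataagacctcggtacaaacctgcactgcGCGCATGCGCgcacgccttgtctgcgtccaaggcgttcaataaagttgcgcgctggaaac
Cox8b: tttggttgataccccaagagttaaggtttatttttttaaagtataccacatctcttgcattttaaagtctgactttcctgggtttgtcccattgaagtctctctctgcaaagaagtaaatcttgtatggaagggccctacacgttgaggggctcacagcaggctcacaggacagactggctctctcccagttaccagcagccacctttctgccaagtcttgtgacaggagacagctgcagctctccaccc
Ndufb6 has an NRF1 core whose first base is at -77 and an ETS motif on the other strand at -232. Ndufa11 has 2 NRF1 cores that overlap, at -60 and -57, on opposite strands. Cox8b, which had the largest log2 fold change of the 53 genes, holds none of the 4 in this window. These matches describe letters only.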

How the data were processed

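Lungs were profiled by poly(A) RNA-seq with a stranded kit, and samples with an RNA integrity value below 8 were dropped, per the labels' protocols. Per the submitters' processing notes, bcl2fastq 2.19.1.403, CASAVA, STAR 2.5.1b, featureCounts 1.5.1 and StringTie 1.3.3 were used, and GRCm38 and GRCh37 are named as builds. For the annotation release and the strand setting, the sources used here give nothing. The authors deposited raw read counts per gene in 1 table and, per library, TPM, FPKM and coverage (FPKM and coverage were not used). Gene names were joined to counts by gene ID.

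Counts were tested with edgeR 4.0.16 (R 4.3.3; quasi-likelihood F test, two-sided, TMM, filterByExpr, 12 groups in 1 fit, Benjamini-Hochberg over 16903 genes, threshold 0.05) in 25 comparisons. The TPM alternative used limma 3.58.1 on log2(TPM + 1) with a minimum mean TPM of 1, and DESeq2 1.42.0 was another alternative. Levels per library are log2(CPM + 0.5). The fits were first tested on simulated data. Lengths are of principal transcripts in GENCODE M21 (GRCm38), and coordinates are those of the deposited files. The spans of 33 of the 90 genes differ from that release, and 31 overlap a gene on the opposite strand. The lowest chi-square per degree of freedom between replicates of a group was 6.28, so each pair differed by more than counting noise. This cannot show whether the libraries of a group came from different animals.

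In each comparison with D and between sizes, up to 10 called members with the smallest p per direction were to be named, with the isoform pairs and the ends of each complex in US against D at day 7. Pathway genes named are among the called ones with the smallest p. Members and lists were chosen with earlier results of these data known.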

Additional observations from a re-analysis of the deposited data

Results flagged for a closer look

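The level of complex III genes lay on opposite sides of D on 2 days in the US groups. At day 7 every US library was below every D library (mean difference -0.533 on the log2 scale), and at day 28 every US library was above (0.168). The level of complex V genes did so in the S groups, with a mean difference from D of -0.272 at day 1 and 0.12 at day 28. The differences between days in these levels were not tested. Gene by gene, the effect of S at day 28 against day 1 was tested, and edgeR called 0 of 17 complex V genes, with 5 at an unadjusted p under 0.05 and a median of 0.40. DESeq2 called 0 as well.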

How the results depend on the processing

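The counts of OXPHOS genes called were recomputed under each alternative. For US against D at day 7 (4 genes), DESeq2 gave 29 (7.55% of all genes) and no filter on low counts 14 (1.41%). Removal of GC and length trends gave 9 (2.44%), the replicate block 2 (1.42%) and limma on log2(TPM + 1) 1 (0.826%). The 2 groups alone gave 0, and leaving out 1 library gave 0 to 54. For D day 28 against D day 7 (53 genes), DESeq2 gave 66 (20.8% of all genes) and no filter on low counts 51 of 89 (6.48%). Removal of GC and length trends gave 0 and leaving out 1 library 0 to 70. Starting from 0, the 2 groups alone gave 21 for S against D at day 1 (6.69% of all genes). They gave 3 for L against D at day 28 (4.51%). US against D at day 1 had 1 with DESeq2 (2.17% of all genes) and 2 with GC and length trends removed (3.26%). The joint test of material by day had 3 with DESeq2 (4.21%) and 1 without the filter (0.465%). Leaving out 1 library gave 0 to 31 for D day 7 against D day 1, 0 to 45 for L against US at day 7 and 0 to 2 for the effect of L at day 28 against day 1. In the other comparisons, leaving out 1 library gave 0. The causes were not tested. RLE size factors gave 5 for US against D at day 7 (2.25% of all genes) and 56 for D day 28 against D day 7 (15.9%).

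Sdha and Atp5sl, both near 0, changed sign. Sdha in D day 28 against D day 7 was -0.0019 without the filter, -0.028 with GC and length trends removed, -0.0022 without D day 7 replicate 2 and -0.0098 without D day 28 replicate 3, and leaving out 1 library gave up to 0.0316. Atp5sl in US against D at day 7 was -0.0041 without D day 7 replicate 3 and -0.0055 without US day 7 replicate 1, and leaving out 1 library gave up to 0.2015.

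Replicate numbers did not pair the libraries: over 63 pairs the correlation of deviations from group means had a median of 0.003, 13 exceeded 0.1, and 18 were best with their own number. The replicate block gave 42 for D day 28 against D day 7 (14.1% of all genes). Depth of 16.2 to 23.8 counts per CPM in 35 libraries limits Cox8b and Cox7a1 most.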
